A study of Mus musculus with 12 samples.

Results

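The cytosolic heat shock proteins of the HSP70, HSP110, HSP90 and DnaJ families were described at the transcript level through 10 genes, Hspa1a, Hspa1b, Hspa8, Hspa4, Hsph1, Hsp90aa1, Hsp90ab1, Dnaja1, Dnaja4 and Dnajb1. They were chosen by symbol from the 47643 genes of the deposited count table, with earlier results of these data known. All 10 were among the 6676 genes with enough reads to be tested. Hspa1a and Hspa1b encode nearly the same protein, so their summed reads were also analysed.

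The RNA came from the gastrocnemius, a calf muscle, of 6 female C57BL/6J mice aged 11 weeks, 3 labelled control and 3 labelled as over-expressing c-myc, written Myc below. From every animal the left leg was left uncontracted and the right leg was acutely contracted, which gave 12 libraries in 4 groups of 3: uncontracted control, contracted control, uncontracted Myc and contracted Myc. Side of the body and contraction therefore cannot be told apart. How c-myc was over-expressed, in which cells, how contraction was evoked and how long afterwards the muscle was taken are not given in the sources used here. The libraries were made with a kit that reads messenger RNA at its 3' end, so that read number does not grow with transcript length.

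The libraries held 1371732 to 1643216 counted reads, of which 27.1 to 35.2% were mitochondrial. Levels are given as normalised read counts in CPM, which puts every library on the same effective size, and 1 read was worth 0.609 to 0.783 CPM. Myc, the over-expressed gene, was counted 0, 1 and 0 times in the uncontracted control libraries 1, 2 and 3 and 11, 9 and 9 times in the uncontracted Myc libraries. In contracted muscle it was counted 1, 10 and 59 times in the libraries labelled control and 32, 0 and 2 times in those labelled Myc. By their Myc reads, the 4 contracted libraries numbered 2 and 3 thus went against their genotype labels. Whether labels were exchanged or contraction changed Myc itself was not tested. Results are also given without these 4 libraries. Leaving them out keeps 1 contracted library per genotype, which is then assumed to vary like the others. The summed level of 5 muscle fibre markers (Acta1, Ckm, Myh4, Mylpf and Tnnt3) was 81751 to 106953 CPM in every library, as the tissue label states.

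Heat shock proteins bind unfolded or damaged proteins and help them fold, hold them soluble or pass them on for degradation. HSP70 proteins work in cycles of ATP hydrolysis: DnaJ proteins (HSP40) bring the client and start hydrolysis, and HSP110 proteins exchange the nucleotide so that the client is let go. HSP90 takes over partly folded clients such as kinases and steroid receptors. When cells are heated or strained, heat shock factor 1 binds repeats of the motif nGAAn in front of stress-inducible members of these families, while other members are made at all times; contracting muscle is a tissue in which this response is well known.

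Hspa1a and Hspa1b are neighbouring genes of a single exon on the minus strand of chromosome 17. In GRCm38 (mm10) with the GENCODE annotation, Hspa1a lies at chr17:34969190-34972156 and Hspa1b at chr17:34956436-34959238. The 250 bases before the annotated start of each gene (RefSeq, GRCm38.p6, chr17:34972157-34972406 and chr17:34959239-34959488, minus strand) are shown because these genes had the 2 largest changes among the 10. Each stretch adjoins the GENCODE start of its gene, and exons of other genes within it were not searched for. Capitals mark 2 facing heat shock units, searched as GAANNTTC or TTCNNGAA, each of which reads the same on both strands.
Hspa1a: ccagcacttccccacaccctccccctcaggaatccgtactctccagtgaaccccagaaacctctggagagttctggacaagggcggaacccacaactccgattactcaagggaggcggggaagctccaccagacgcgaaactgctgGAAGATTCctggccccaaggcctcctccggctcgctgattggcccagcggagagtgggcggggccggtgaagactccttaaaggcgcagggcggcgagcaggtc
Hspa1b: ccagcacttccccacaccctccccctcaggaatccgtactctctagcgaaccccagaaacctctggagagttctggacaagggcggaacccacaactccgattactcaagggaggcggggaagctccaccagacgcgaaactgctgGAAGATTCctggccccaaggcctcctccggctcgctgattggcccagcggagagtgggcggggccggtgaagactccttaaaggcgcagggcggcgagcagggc
The sequences were identical at 247 of 250 positions. Counted from 1 at the 5' end of the window, with the Hspa1a base first, the differences were C44T, T47C and T249G. Both hold the match GAAGATTC at the same place, beginning 104 bases before the start. RefSeq promoter windows were at hand for 7 of the 10 genes, and 5 of these, Hspa1a, Hspa1b, Hsph1, Dnaja1 and Dnaja4, held at least 1 match in some window, against 14.5% of all 27025 genes (12.8% of 32851 windows of the same length). Dnaja4 held 2 matches in 1 window, as did 1.46% of all windows. Stretches of 30 bases around the matches of the other 3 genes are shown to let the units be compared, with Dnaja1 at chr4:40722333-40722362 (plus strand), Hsph1 at chr5:149636351-149636380 (minus strand), and Dnaja4 at chr9:54699458-54699487 and chr9:54699496-54699525 (plus strand). By the GENCODE annotation the stretches of Dnaja1 and Dnaja4 lie inside the gene. That of Hsph1 spans its annotated start, with the match itself inside the gene. GENCODE begins these genes further upstream than RefSeq does here.
Dnaja1: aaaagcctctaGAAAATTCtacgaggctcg
Hsph1: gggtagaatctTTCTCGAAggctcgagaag
Dnaja4, first: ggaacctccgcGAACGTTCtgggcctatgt
Dnaja4, second: gcctcctggcgGAACCTTCcgccggcgccg
The windows of Dnajb1 (2) and Hspa4 (1) held no match. No window of these 7 genes held the longer motif of 3 alternating units, GAANNTTCNNGAA or its reverse TTCNNGAANNTTC, which 0.466% of all windows held. A match is an exact string of letters and was not tested for binding. Units that depart from these letters or this spacing were not searched for, so a window without a match may still hold some.

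With contraction, 6 of the 10 genes rose when both genotypes were averaged, and none fell. They were the stress-inducible HSP70 genes Hspa1a and Hspa1b, the HSP90 gene Hsp90aa1, and the DnaJ genes Dnajb1, Dnaja1 and Dnaja4. Among all genes tested, 7.47% passed in either direction and 5.71% passed with a higher level (edgeR quasi-likelihood test, Benjamini-Hochberg adjusted p under 0.05). The contracted libraries lay above all uncontracted ones for 5 of the 10 genes, against 2.95% of all genes. At an unadjusted p under 0.05 the count was 10 of the 10 genes, all with a higher level, against 1346 of the 6676 genes in either direction. The median log2 change of the 10 genes was 0.82, and that of all genes tested was -0.0034. Because the 10 genes were chosen with earlier results of these data known, the shares of all genes are a reference and no test of the set. Without the 4 contracted libraries numbered 2 and 3, 4 of the 10 genes rose (Hspa1a, Hspa1b, Hsp90aa1 and Dnajb1), with 1.47% of all genes passing. In bulk muscle, a change in the number of cells of a type and a change in RNA per cell cannot be told apart.

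**Figure D1:**
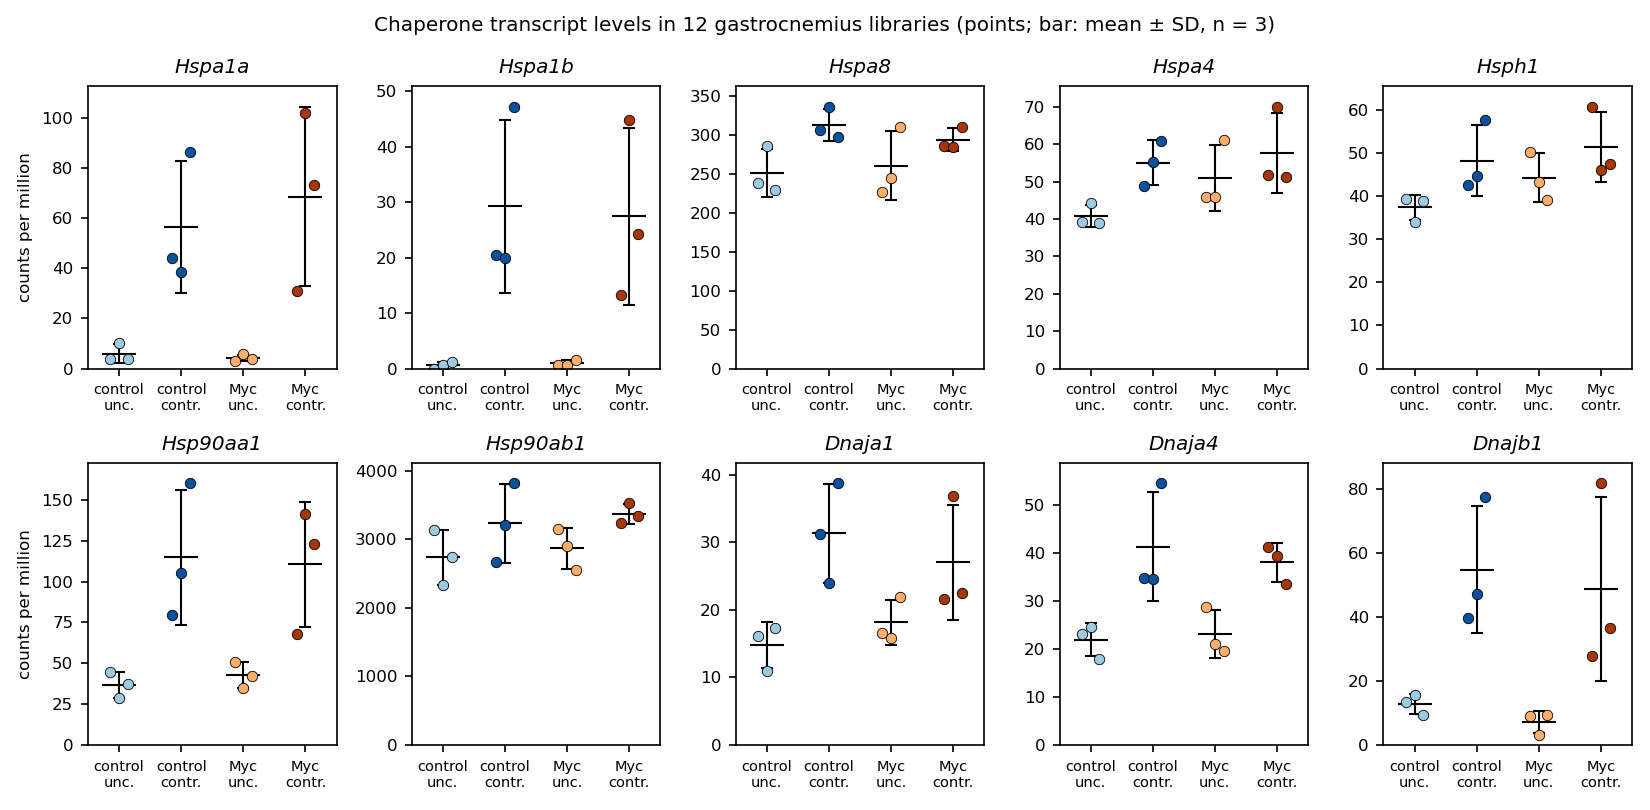
Level of each chaperone in CPM (vertical axis, starting at 0) in the 4 groups (horizontal axis). Points are libraries and bars the mean ± SD of 3; Hspa1a, Hspa1b, Hsp90aa1 and Dnajb1 lie higher in every contracted library than in any uncontracted one, whereas the points of Hspa8, Hspa4, Hsph1 and Hsp90ab1 overlap.

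Hspa1a and Hspa1b, the stress-inducible HSP70 genes, had few reads in the uncontracted muscle. Hspa1a was read 6, 15 and 6 times in the uncontracted control libraries and 62, 58 and 132 times in the contracted ones. In the Myc animals it was read 5, 9 and 5 times in the uncontracted and 44, 166 and 120 times in the contracted leg. Every contracted library exceeded every uncontracted one, and the highest uncontracted value belonged to uncontracted control 2. The mean level was 5.11 ± 2.65 CPM (SD, n = 6) in uncontracted and 62.5 ± 28.9 CPM (SD, n = 6) in contracted muscle. This was an increase of 3.62 ± 0.33 on the log2 scale (SE, edgeR adjusted p = 9.95e-08).

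Hspa1b was read 0, 1 and 2 times in the uncontracted control libraries and 29, 30 and 72 times in the contracted ones. In the Myc animals the reads were 1, 1 and 2 in the uncontracted and 19, 73 and 40 in the contracted leg. Here too the groups did not overlap, and no uncontracted library held more than 2 reads. Pooled over the libraries, 263 reads stood against 7, a ratio of 37.2 per library size (exact 95% interval 17.8 to 93.4, counting error only). The ratio was 45.6 (15.3 to 224) in the controls and 31.0 (11.8 to 115) in the Myc animals. The fitted log2 change was 5.08 ± 0.48 (edgeR adjusted p = 1.33e-07), a value that depends on the prior count because the uncontracted reads are so few.

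Summed, Hspa1a and Hspa1b rose from 5.90 ± 2.64 to 90.8 ± 42.3 CPM (SD, n = 6 each), by 3.95 ± 0.33 on the log2 scale (edgeR adjusted p = 2.11e-08). By group, the summed level was 6.57 ± 3.79 CPM in uncontracted and 85.6 ± 41.8 CPM in contracted controls (SD, n = 3). In the Myc animals it was 5.22 ± 1.28 and 96.1 ± 51.4 CPM (SD, n = 3). The change was 3.71 ± 0.45 in controls (adjusted p = 1.87e-05) and 4.19 ± 0.47 in Myc animals (adjusted p = 3.99e-06, both edgeR). Without the 4 libraries in doubt it was 3.29 in controls and 3.07 in Myc animals, so that the order of the genotypes turned. The averaged change without them was 3.18 for the sum (adjusted p = 2.45e-08), 2.86 for Hspa1a and 4.29 for Hspa1b, smaller than with them but past the threshold for each.

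The copies could be told apart by their 3' ends. The 2 transcripts were identical at 91.4% of 2729 aligned bases, but the last 500 bases of each, where this kind of library is read, held no run of 50 bases found in any other annotated gene. The nearest run of 50 bases that they share ended 786 bases from the 3' end of Hspa1a and 619 bases from that of Hspa1b. Reads further inside the transcripts could still have been divided between them or dropped. Gm20481 overlaps 2225 bases of Hspa1a on the other strand, outside its last 500 bases, and had no read. This does not show whether reads in the overlap were dropped.

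Hspa8 encodes the HSP70 protein that cells make at all times. Its reads were 370, 420 and 371 in uncontracted and 432, 505 and 454 in contracted controls, and 356, 385 and 397 in uncontracted and 410, 464 and 511 in contracted Myc libraries. Its mean level was 256 ± 34.3 CPM in uncontracted and 304 ± 19.1 CPM in contracted muscle (SD, n = 6). The change of 0.25 ± 0.09 on the log2 scale did not pass (edgeR adjusted p = 0.131), and the libraries overlapped. Of the runs of 50 bases in the last 500 bases of Hspa8, 81.8% also occur in 11 processed pseudogenes. Of the 10 of these in the table, 8 had no read and the other 2, Gm5575 and Gm7899, held 4 reads and 1 read in all. Reads that fit several of these genes could have been dropped, so the level of Hspa8 may be too low.

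Hspa4 and Hsph1 encode HSP110 proteins, the partners that release clients from HSP70. Hspa4 had 45.9 ± 8.06 CPM in uncontracted and 56.3 ± 7.92 CPM in contracted muscle (SD, n = 6), a log2 difference of 0.31 ± 0.12 (edgeR adjusted p = 0.153). Hsph1 had 40.9 ± 5.50 and 49.9 ± 7.51 CPM, a log2 difference of 0.29 ± 0.13 (adjusted p = 0.201, edgeR). Neither passed, and for both the contracted and uncontracted libraries overlapped. The RefSeq windows of Hsph1 held a match to the heat shock motif and that of Hspa4 did not, as shown above. By GENCODE the match of Hsph1 lies inside the gene.

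The 2 cytosolic HSP90 genes differed in level and in change. Hsp90aa1 encodes the stress-inducible form. It was read 69, 42 and 60 times in uncontracted and 112, 158 and 244 times in contracted controls. The Myc libraries held 80, 55 and 54 reads from uncontracted and 97, 230 and 202 reads from contracted legs. All contracted levels (67.7 to 160 CPM) were above all uncontracted ones (28.6 to 51.0 CPM). The log2 change was 1.51 ± 0.19 (edgeR adjusted p = 6.29e-06), and without the 4 libraries in doubt it was 0.89 (adjusted p = 0.00583).

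Hsp90ab1 encodes the form made at all times and took most reads of the 10 genes, 80.5 to 88.2% of them in a library. Its level ranged from 2337 to 3153 CPM in the uncontracted and from 2668 to 3812 CPM in the contracted libraries, with overlap. The log2 difference of 0.24 ± 0.10 did not pass (edgeR adjusted p = 0.182). A share of 7.76% of the runs of 50 bases at its 3' end also occurs in the processed pseudogene Gm6368, which held 2 to 12 reads per library. With Hsp90ab1 set aside, the other 9 genes summed to 394 to 510 CPM in the uncontracted and 601 to 881 CPM in the contracted libraries.

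Dnajb1, the main stress-inducible HSP40 partner of HSP70, had the largest change of the DnaJ genes. It was read 21, 23 and 15 times in uncontracted and 56, 71 and 118 times in contracted controls. The Myc libraries held 14, 5 and 12 reads from uncontracted and 40, 133 and 60 reads from contracted legs. No contracted library fell within the uncontracted range. The contracted mean was 51.7 ± 22.4 CPM (SD, n = 6), while the uncontracted libraries lay between 3.18 and 15.7 CPM. Dnajb1 rose by 2.44 ± 0.28 on the log2 scale (edgeR adjusted p = 2.53e-06), and without the 4 libraries in doubt it was 1.81 (adjusted p = 0.000188). The windows before the 2 annotated starts of Dnajb1 held no match to the motif searched above.

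Dnaja1 and Dnaja4 encode DnaJ proteins with a zinc-binding domain and rose less. Dnaja1 was read 25, 16 and 28 times in uncontracted and 44, 36 and 59 times in contracted controls, and 26, 25 and 28 times in uncontracted and 31, 60 and 37 times in contracted Myc libraries. Its log2 change was 0.83 ± 0.19 (edgeR adjusted p = 0.00567), and the lowest contracted library, Myc 1 at 21.7 CPM, lay just under the highest uncontracted one, Myc 3 at 21.9 CPM. Dnaja4 was read 36, 36 and 29 times in uncontracted and 49, 52 and 83 times in contracted controls, and 45, 33 and 25 times in uncontracted and 59, 64 and 55 times in contracted Myc libraries. Its libraries did not overlap, and its log2 change was 0.81 ± 0.16 (edgeR adjusted p = 0.0016).

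Neither call was kept without the 4 libraries in doubt, a fit with 8 libraries in which 107 genes passed in all against 499. The change was then 0.67 for Dnaja1 (adjusted p = 0.31) and 0.75 for Dnaja4 (adjusted p = 0.0833). The 3' ends of both genes overlap a gene on the other strand, Smu1 with 14 to 35 reads per library for Dnaja1 and Wdr61 with 2 to 9 reads for Dnaja4. No strand setting of the count is given in the sources used here. Whether reads in these overlaps were kept apart by strand, dropped or mixed with those of the partners cannot be told.

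**Figure D2:**
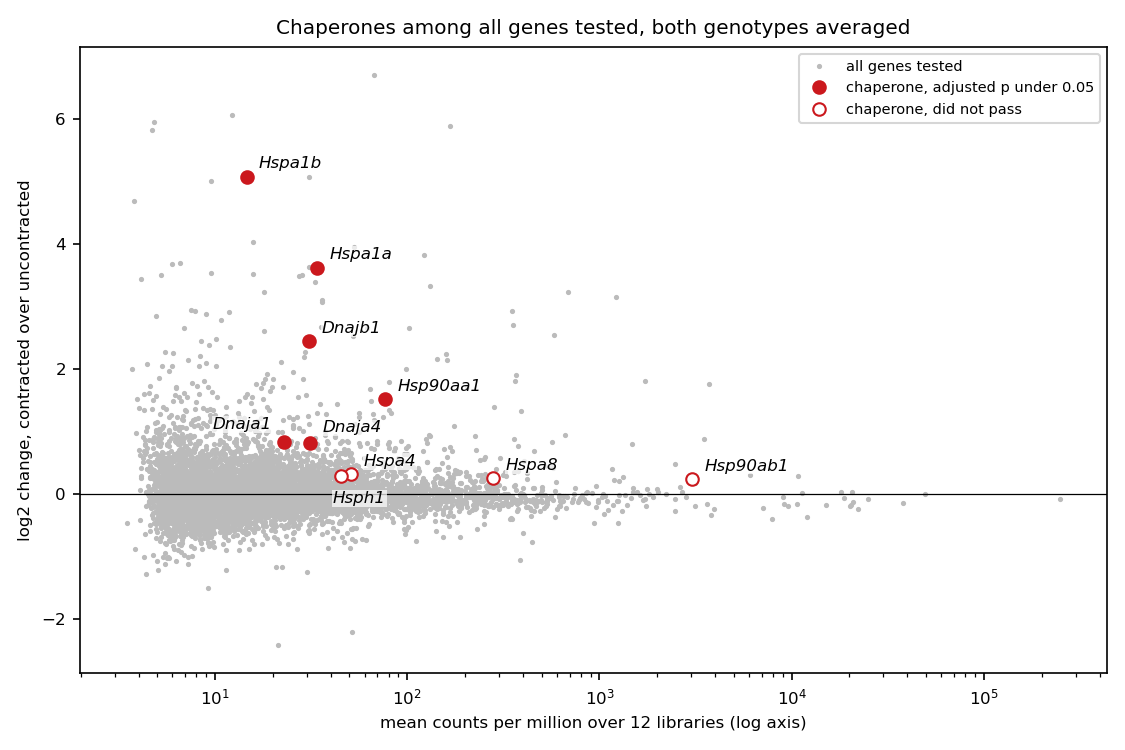
Log2 change with contraction, averaged over genotypes (vertical axis), against mean level in CPM on a log axis, for all genes tested (grey) and the 10 chaperones (red, filled where the adjusted p was under 0.05). The 6 genes that passed have a log2 change from 0.81 (Dnaja4) to 5.08 (Hspa1b), and the 2 most highly expressed, Hspa8 and Hsp90ab1, did not pass.

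In each genotype alone the changes had the same direction. In controls the same 6 genes rose, with 2.80% of all genes passing in either direction and 2.38% passing with a higher level. The median log2 change of the 10 genes was 0.99. In Myc animals 4 of the 10 rose, Hspa1a, Hspa1b, Hsp90aa1 and Dnajb1, with 3.89% of all genes passing in either direction and 3.45% with a higher level, and the median was 0.65. Without the 4 libraries in doubt, 4 of the 10 rose in controls (0.920% of all genes passing) and 3 in Myc animals (0.810%), where Hsp90aa1 had a log2 difference of 0.68 (adjusted p = 0.571, edgeR).

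By genotype, the log2 change of Hspa1a was 3.26 ± 0.46 in controls and 3.98 ± 0.48 in Myc animals. It was 2.89 and 2.83 without the 4 libraries in doubt, and 3.86 in controls without uncontracted control 2. Hspa1b changed by 5.34 ± 0.69 in controls and 4.82 ± 0.66 in Myc animals, and by 6.15 in controls without uncontracted control 3, which held 2 of the 3 uncontracted control reads. Without the 4 libraries in doubt the Hspa1b change was 4.81 in controls and 3.76 in Myc animals. Hsp90aa1 rose by 1.64 ± 0.26 (adjusted p = 0.000512) and 1.38 ± 0.26 (adjusted p = 0.00205, both edgeR), and its change in controls was 1.10 without those 4. Dnajb1 rose by 2.10 ± 0.37 (adjusted p = 0.00134) and 2.79 ± 0.42 (adjusted p = 0.00018), the latter 2.19 without contracted Myc 2. Without the 4 libraries in doubt Dnajb1 changed by 1.62 in controls and 1.99 in Myc animals.

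For the lesser DnaJ genes the calls in controls were less stable. Dnaja1 changed by 1.07 ± 0.26 in controls (edgeR adjusted p = 0.0259), and its adjusted p was 0.069 without uncontracted control 1, 0.156 without uncontracted control 2 and 0.193 without contracted control 3. Dnaja4 changed by 0.92 ± 0.22 in controls (edgeR adjusted p = 0.0224). Its adjusted p was 0.0502 with DESeq2, and between 0.0509 and 0.232 when uncontracted control 1, 2 or 3 or contracted control 3 was left out. In Myc animals the log2 difference was 0.59 ± 0.26 for Dnaja1 (adjusted p = 0.259) and 0.71 ± 0.22 for Dnaja4 (adjusted p = 0.0865, both edgeR).

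**Figure D3:**
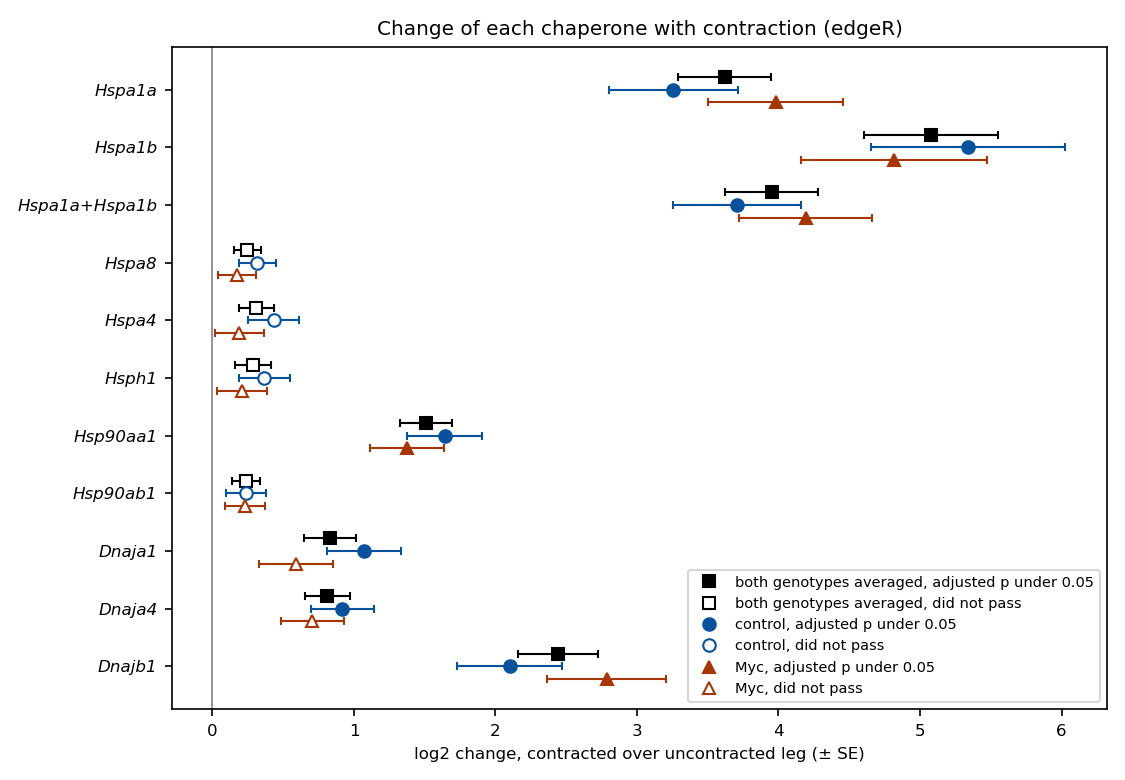
Log2 change of each chaperone, and of summed Hspa1a and Hspa1b, between contracted and uncontracted legs (horizontal axis), with SE bars, averaged over genotypes (squares), in controls (circles) and in Myc animals (triangles); filled symbols had an adjusted p under 0.05. Each of the 10 genes has a positive change in both genotypes, and Dnaja1 and Dnaja4 are filled in controls and open in Myc animals.

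The share of reads taken by the gene with the larger change was computed in every library for 4 pairs of related genes. The pairs were chosen after the changes above were seen, so the shares restate them and are given as a description, with no test. Hspa1a and Hspa1b together took 2.22 ± 0.79% of the reads of these genes and Hspa8 in uncontracted muscle and 22.4 ± 8.66% in contracted muscle (SD, n = 6). The contracted libraries ranged from 13.3% (Myc 1) to 34.0% (Myc 2), all above the uncontracted maximum of 3.67%. If the level of Hspa8 is too low because shared reads were dropped, these shares are too high.

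Hsp90aa1 took 1.39 ± 0.19% of the HSP90 reads in uncontracted and 3.26 ± 0.72% in contracted muscle (SD, n = 6). Hsp90ab1 thus remained the source of over 95% of the reads of this pair in every library, the largest Hsp90aa1 share being 4.03% in contracted control 3. Dnajb1 took 36.9 ± 14.3% of the reads of Dnajb1 and Dnaja1 in uncontracted and 62.7 ± 5.55% in contracted muscle (SD, n = 6), and the libraries overlapped.

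Within the HSP70 copies, Hspa1b took 14.4 ± 11.1% of the reads of Hspa1a and Hspa1b in uncontracted and 31.2 ± 3.62% in contracted muscle (SD, n = 6). The uncontracted share rests on 7 of 53 reads (13.2%, exact 95% interval 5.48 to 25.3%) and the contracted share on 263 of 845 reads (31.1%, 28.0 to 34.4%, counting error only). The uncontracted libraries ranged from 0 to 28.6% and the contracted ones from 25.0 to 35.3%.

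**Figure D4:**
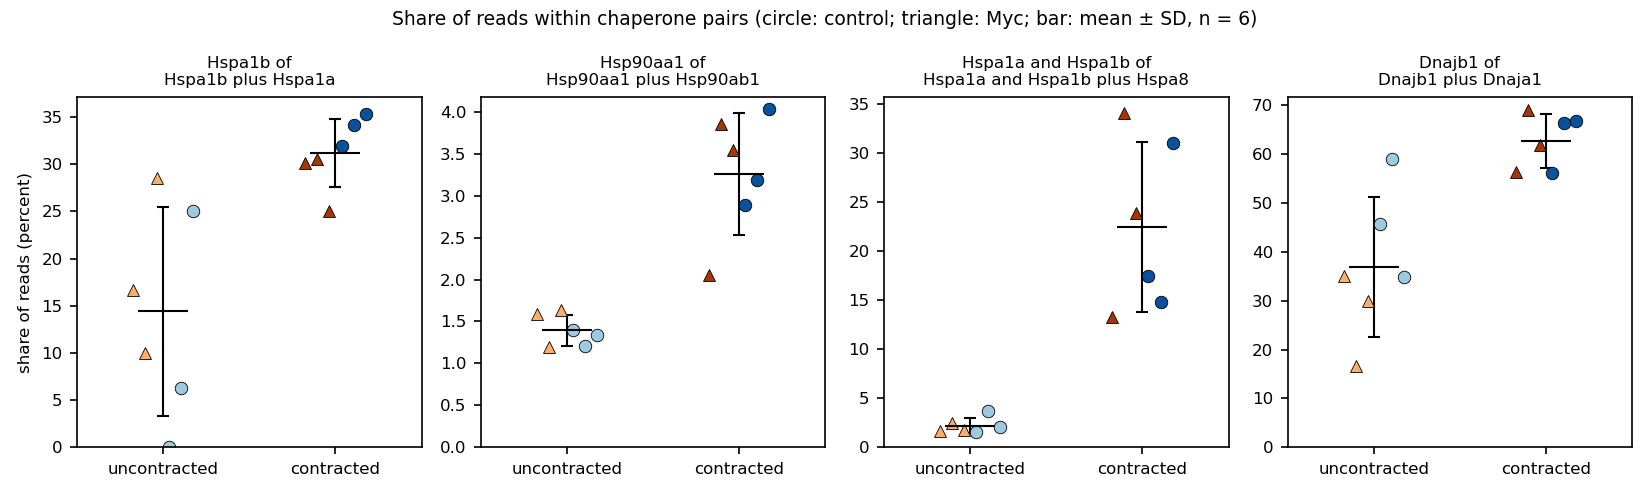
Percent of reads taken by the first-named gene within each of 4 pairs of chaperones (vertical axes, starting at 0) in uncontracted and contracted libraries. Circles are control and triangles Myc libraries, with the mean ± SD of 6; the 2 legs do not overlap for Hsp90aa1 and for summed Hspa1a and Hspa1b, and they overlap for Hspa1b and for Dnajb1.

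The genes that rose most also varied among the contracted libraries. Among the 6 contracted libraries the highest was 3.34 times the lowest for summed Hspa1a and Hspa1b, 2.92 times for Dnajb1 and 2.36 times for Hsp90aa1, but 1.18 times for Hspa8 and 1.43 times for Hsp90ab1. The same ratio among the 6 uncontracted libraries, which held far fewer reads of the inducible genes, was 2.85 times for summed Hspa1a and Hspa1b, 4.93 times for Dnajb1 and 1.78 times for Hsp90aa1. Contracted control 3 and contracted Myc 2 were the highest pair for 7 of the 10 genes. Contracted Myc 1 was the lowest for 5, namely Hspa1a, Hspa1b, Hsp90aa1, Dnaja1 and Dnajb1. These orders were not counted over all genes, so they cannot be called particular to the chaperones. Of all genes, 499 passed in the averaged contraction change. The number was 709, 409 and 390 without contracted control 1, 2 and 3, and 723, 350 and 390 without contracted Myc 1, 2 and 3. Hspa8, Hsph1 and Dnaja4 had other orders, with contracted control 2, Myc 1 and control 3 highest in turn.

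Myc reads did not follow this order: of the 2 libraries with the highest chaperone levels, contracted control 3 held 59 Myc reads and contracted Myc 2 held 0. Of the 6 neutrophil markers listed (S100a8, S100a9, Ly6g, Mmp8, Retnlg and Camp), Ly6g was at 0 in every library. Their summed level was 0 to 3.72 CPM in uncontracted and 4.91 to 70.8 CPM in contracted muscle, lowest in contracted Myc 2 and highest in contracted control 3, the 2 libraries that lead the chaperones. Haemoglobin transcripts and Alas2, the erythrocyte list, summed to 314 to 468 CPM in uncontracted and 404 to 1013 CPM in contracted muscle, and were highest in contracted Myc 1, where 5 chaperones were lowest. The part of blood or immune cells in the results was not tested.

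**Figure D5:**
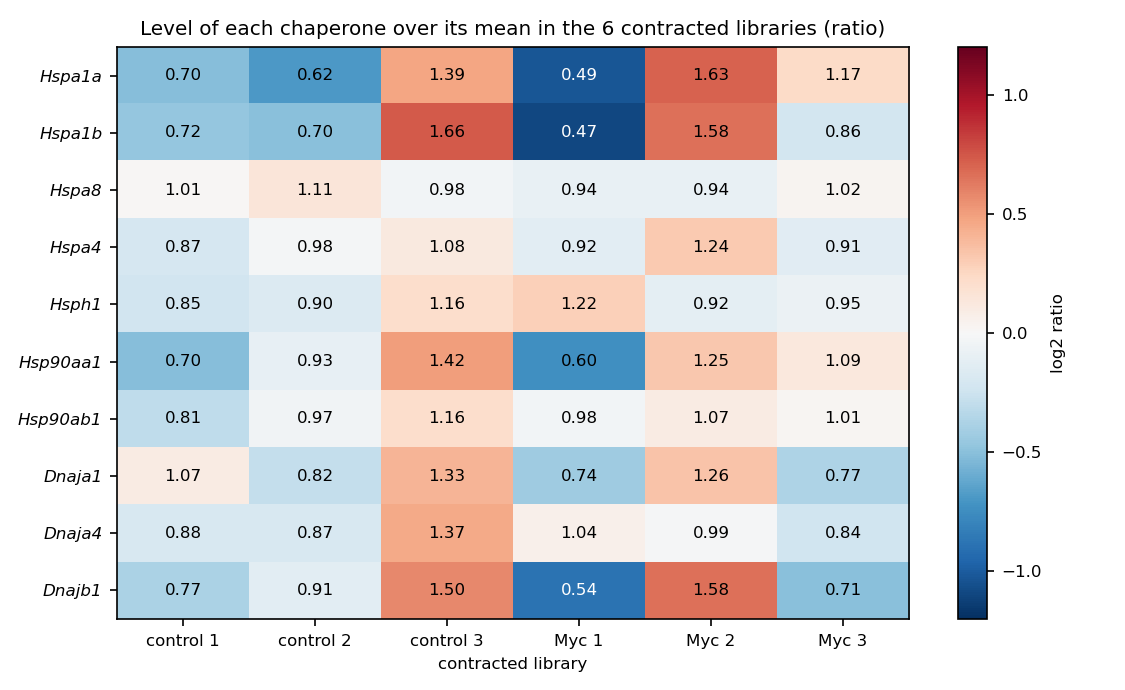
Level of each chaperone in each of the 6 contracted libraries divided by its mean over these 6 (number in each cell; colour shows its log2). Contracted control 3 and contracted Myc 2 are at 1.39 and 1.63 times the mean for Hspa1a and contracted Myc 1 at 0.49 times, whereas Hspa8 stays between 0.94 and 1.11 times.

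No chaperone passed a test between genotypes. In uncontracted muscle, in contracted muscle and in the difference of the contraction change between genotypes, 0 of the 10 genes passed the edgeR test, and 0% of all genes passed in each of these comparisons. At an unadjusted p under 0.05 the count of the 10 genes was 0 in each, and that of all genes was 421, 204 and 331. DESeq2 called 0 of the 10 genes in each, and 1, 0 and 0 of all genes. With edgeR on the compared libraries alone, 2 of all genes passed in uncontracted muscle. With no filter, 24 passed there and 18 in the difference of the changes. For summed Hspa1a and Hspa1b the log2 difference of Myc from control was -0.31 ± 0.71 in uncontracted (adjusted p = 0.966) and 0.17 ± 0.31 in contracted muscle (adjusted p = 0.999), and the difference of the changes was 0.48 ± 0.78 (adjusted p = 0.979, edgeR). These errors allow sizeable differences in either direction. The signs of these 3 values turned when single libraries or the 4 libraries in doubt were left out. The Myc reads of those 4 libraries went against their labels, so the comparisons that use contracted muscle may mix genotypes. The lack of calls in these comparisons cannot show whether Myc changed the 10 genes.

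The smallest adjusted p of any of the 10 genes in these comparisons was 0.805, for Hspa4 in uncontracted muscle. Hspa4 had 40.9 ± 2.97 CPM in uncontracted controls and 50.9 ± 8.80 CPM in uncontracted Myc animals (SD, n = 3). Uncontracted Myc 3 was at 61.1 CPM, but Myc 1 and Myc 2 were at 45.9 and 45.8 CPM, close to the highest control at 44.3 CPM. Dnajb1 had 12.8 ± 3.25 CPM in uncontracted controls and 7.17 ± 3.46 CPM in uncontracted Myc animals (SD, n = 3), a log2 difference of -0.85 ± 0.52 (edgeR adjusted p = 0.817).

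Related chaperones and partners were read from lists of other genes, also chosen with earlier results of these data known. Each count of a list stands beside the share of all genes tested, 5.71% passing with a higher level and 7.47% in either direction. Small heat shock proteins, which hold unfolded proteins without ATP and are abundant in muscle, rose for 4 of the 7 measured genes, against 5.71% of all genes. Hspb8 went from 769 ± 155 to 2676 ± 628 CPM, Hspb7 from 223 ± 25.2 to 563 ± 129 CPM, Hspb1 from 45.4 ± 8.87 to 154 ± 42.4 CPM and Cryab from 457 ± 86.5 to 866 ± 78.7 CPM (SD, n = 6 each). Their log2 changes were 1.80 ± 0.15, 1.32 ± 0.11, 1.75 ± 0.16 and 0.93 ± 0.09, with adjusted p from 1.80e-08 to 3.69e-07 (edgeR). All 4 also passed without the 4 libraries in doubt, where 1.47% of all genes passed. Hspb6, at 3136 CPM on average the highest of the list among those that did not pass, had a log2 difference of 0.16 ± 0.09 (edgeR adjusted p = 0.295).

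Of 16 other DnaJ genes measured, 1 rose, a share near the 5.71% of all genes. It was Dnajb4, a close relative of Dnajb1, with 7.52 ± 3.79 CPM in uncontracted and 21.2 ± 4.87 CPM in contracted muscle (SD, n = 6; log2 change 1.55 ± 0.23, edgeR adjusted p = 8.51e-05). Dnaja2, the highest of the others at 68.6 CPM, had a log2 difference of 0.04 ± 0.11. Of the other HSP70 and HSP110 genes measured, 0 of 2 passed with edgeR or DESeq2 and 0 had an unadjusted p under 0.05. Hspa1l, a neighbour of Hspa1a known for its expression in testis, had a log2 difference of -0.30 ± 0.23 (edgeR adjusted p = 0.522).

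Of 28 co-chaperones of HSP70 and HSP90, 1 rose and 1 fell with edgeR, a share near the 7.47% of all genes that passed in either direction, and 1 of the 28 passed with DESeq2. Bag3, which joins HSP70 to small heat shock proteins in the clearing of damaged muscle proteins, rose from 132 ± 6.28 to 211 ± 40.7 CPM (SD, n = 6; log2 change 0.68 ± 0.11, edgeR adjusted p = 0.000337). Cdc37, which brings kinases to HSP90, fell by 0.36 on the log2 scale (SE 0.11, edgeR adjusted p = 0.0453). Neither passed without the 4 libraries in doubt, where Bag3 had a log2 difference of 0.37 (adjusted p = 0.284) and Cdc37 one of -0.32 (adjusted p = 0.666). Unc45b, which folds muscle myosin together with HSP90, had 320 CPM on average and a log2 difference of 0.08 ± 0.09.

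Among 8 measured genes of heat shock factors and protein quality control, 1 rose, against 5.71% of all genes. It was Ier5, an immediate early gene known to act on heat shock factor 1, from 8.37 ± 2.10 to 35.9 ± 13.7 CPM (SD, n = 6; log2 change 2.11 ± 0.26, edgeR adjusted p = 6.50e-06). Its change was 1.18 without the 4 libraries in doubt (adjusted p = 0.0269), and that of Dnajb4 1.34 (adjusted p = 0.0347). None of the 13 measured genes of the chaperonin TRiC and prefoldin, and none of the 11 chaperones of the endoplasmic reticulum, passed with edgeR or DESeq2 when genotypes were averaged, and 0 and 1 of them had an unadjusted edgeR p under 0.05. Hspa5, the HSP70 of the endoplasmic reticulum, had a log2 difference of 0.17 ± 0.10 (edgeR adjusted p = 0.397). Of 14 mitochondrial chaperones and proteases 1 passed, a share near the 7.47% of all genes. It was Hspd1, which rose by 0.50 ± 0.15 on the log2 scale (edgeR adjusted p = 0.0453). It did not pass without the 4 libraries in doubt (0.42, adjusted p = 0.649) or with DESeq2. Hspa9, the mitochondrial HSP70, had a log2 difference of 0.16 ± 0.09.

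The genes whose levels over the 12 libraries were most like summed Hspa1a and Hspa1b were Xirp1, Arid5b, Srxn1, Otud1 and Nr4a3. Likeness was the root mean square difference of log2 CPM, centred on the mean of the 12 libraries, over 6539 genes with a mean of at least 5 CPM. It was 0.296 for Xirp1, which encodes an actin-binding protein of striated muscle, 0.419 for Arid5b, 0.433 for Srxn1, 0.487 for Otud1 and 0.499 for Nr4a3, where the profile of summed Hspa1a and Hspa1b itself had an SD of 1.97. The nearest to the mean profile of the 10 genes (SD 0.72) were Dot1l at 0.184, Homer1 at 0.186, Bhlhe41 at 0.210, Stat3 at 0.222 and Srpk2 at 0.232. All values come from the same libraries, whose contrast of legs is shared by every gene that rose.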

How the data were processed

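The authors deposited 1 table of whole-number read counts per gene, not normalised, made from QuantSeq 3' mRNA libraries after Trizol extraction, per the labels' protocols. The submitters' processing notes list FastQC 0.11.5, STAR 2.5.2a, SAMtools, HTSeq 0.6.0 and the genome build mm10, without role or order. Annotation release, strand setting and filters are not given in the sources used here. Groups came from titles and source names. The table pairs no symbols with its identifiers; 47224 of 47643 matched the reference list of names, and 419 did not.

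Counts were filtered with filterByExpr (minimum count 10), scaled by TMM and fitted with 4 group means over all 12 libraries by the quasi-likelihood method of edgeR 4.0.16 (R 4.3.3). Tests were 2-sided, with Benjamini-Hochberg adjustment over 6676 genes. The contraction change averaged over genotypes was the mean of both genotypes' changes. Summed Hspa1a and Hspa1b were fitted in a table where their sum replaced them. Each SE was derived from the log2 change and its F statistic, as the size of the former over the root of the latter. Genes passed at an adjusted p under 0.05. The 10 genes, the lists and the tests were chosen with earlier results of these data known.

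All 10 genes were named; from each other list, the genes that passed in the averaged contraction change (at most 4, by smallest p) and the highest expressed gene that did not. Lists of markers of 11 cell types were also read. In these, S100a8 and S100a9 (neutrophil), Cd68 (macrophage) and 4 haemoglobin genes passed as higher, C1qa and Csf1r (macrophage) and Acta2 (smooth muscle) as lower. Without the 4 libraries in doubt C1qa, Csf1r and Acta2 did not pass (adjusted p 0.803, 0.939 and 0.772) and Cd68 was not tested. No gene passed with edgeR or DESeq2 among muscle fibre, endothelial, fibroblast, adipocyte, Schwann cell or tendon markers, where 1 muscle fibre and 1 fibroblast marker had an unadjusted p under 0.05; no lymphocyte marker had enough reads to be tested. Exact intervals are at 95%.

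Legs with the same number and genotype are taken from the same animal, per the titles. The pairing check, the correlation of both legs' deviations over 6676 genes, gave -0.122 to 0.112. No 2 libraries agreed within sampling noise (smallest chi-square per degree of freedom 2.51). Alternatives were DESeq2 1.42.0, RLE scaling, no scaling beyond library totals, robust dispersions, no filter, a filter of 20 reads in 3 libraries, the compared libraries alone, the animal or number as a block, each library left out, and the 4 contracted libraries numbered 2 and 3 left out. The edgeR steps were tested on simulated counts. Promoter windows are from RefSeq (GRCm38.p6), transcripts from GENCODE vM21; windows for Hspa8, Hsp90aa1 and Hsp90ab1 were not used here.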

Additional observations from a re-analysis of the deposited data

Results flagged for a closer look

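For each of the 10 genes and summed Hspa1a and Hspa1b, the 6 uncontracted and the 6 contracted libraries were searched for a library far from the other 5, by Dixon's test at its 95% critical value. Chance flags about 1 in 20 such groups, and 22 were searched. Uncontracted control 2 stood apart for Hspa1a at 10.2 CPM and, with the same reads, for summed Hspa1a and Hspa1b at 10.9 CPM. Uncontracted Myc 3 stood apart for Hspa4 at 61.1 CPM. Contracted control 3 stood apart for Dnaja4 at 54.4 CPM.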

How the results depend on the processing

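Of 909 values computed under alternatives, 888 were taken as kept. For a log2 change, kept meant the same direction and the same side of the threshold. For a count of the 10 genes a limited shift was allowed, so a fall from 6 to 4 was also taken as kept. In controls the count lay between 4 and 6 when each library was left out in turn. The count of the 10 genes that rose with contraction, averaged over genotypes, was 6 under each alternative run except without the 4 contracted libraries numbered 2 and 3, where it was 4. With the animal as a replicate block the counts were 6 averaged, 6 in controls, 4 in Myc animals and 0 for the difference of the changes. This block changed no count, but its pairs follow the titles. Because the Myc reads of the 4 contracted libraries numbered 2 and 3 went against their genotype labels, this block cannot show whether the true pairing matters. With replicate number as a block, 0 genes differed between genotypes in either leg. Without the 4 libraries, the log2 change of Hsp90ab1 in controls was -0.0416, and for summed Hspa1a and Hspa1b the difference of the changes was -0.22 and the difference of Myc from control in contracted muscle -0.53, each of the opposite sign to the full data. With each library left out in turn, these ranged from -0.0823 to 0.96 for the difference of the changes, from -0.27 to 0.65 in contracted muscle and from -0.58 to 0.24 in uncontracted muscle. The cause was not tested. Depth limits Hspa1b most, with at most 2 reads in an uncontracted library.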
